A study of Mus musculus with 16 samples.

Results

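The response of mouse skeletal muscle to a tumor was measured over untrained and trained animals together. All 16 RNA-seq libraries of the series entered this comparison, 8 from tumor-bearing mice (the T and TE groups) against 8 from tumor-free mice (the C and E groups), with training status as a covariate in the fit. Of 35415 genes listed, 14749 had enough counts to be tested. The tissue was the gastrocnemius, the large calf muscle, of wild type male BALB/c mice that were 8 weeks old at purchase, with 4 mice sequenced of the 12 assigned to each group. C group mice were tumor-free and untrained. E group mice were tumor-free and were trained for 4 weeks on a treadmill, with sessions of 60 min at a speed of 14 m/min on 6 days of each week. T group mice were inoculated with CT26 cells and not trained, and TE group mice were inoculated and trained in the same way from the day after inoculation. CT26 is a colon carcinoma cell line of BALB/c origin, so the tumor grows in a host of its own strain. It was placed under the skin of the left hind limb, and tumor-free mice were anesthetized too and injected with saline instead. Animals that did not train were set on a treadmill that did not move. The side from which the muscle was taken is not given in the sources used here, and neither is whether each sequenced TE mouse had developed a tumor.

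A tumor can act on muscle through factors that it or the host releases into the blood. Cytokines of the interleukin-6 family bind receptor chains such as Osmr and Il6st, whose kinases activate the transcription factor Stat3, and Stat3 raises acute phase proteins such as Lrg1. Granulocyte factors released in tumor-bearing animals drive neutrophils out of the bone marrow, and endothelial selectins such as Sele and Selp catch leukocytes from the blood stream. In wasting muscle the FoxO transcription factors and the ubiquitin ligases Fbxo32 and Trim63 are the best known markers of protein breakdown.

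Library totals lay between 35628211 and 37635741 counts, so that 3 counts in a library stand for 0.0760 to 0.0875 CPM, the counts scaled by the TMM-normalized total of each library. All 16 libraries were entered as batch 1, and an effect of batch was not tested. The 18 markers of skeletal muscle fibers summed to 165811 to 196493 CPM (median 180112) in the tumor-free mice and to 180924 to 203865 CPM (median 189915) in the tumor-bearing mice. Of 17 carcinoma and epithelial markers, 12 were too low to be tested, among them Epcam with 0 to 5 counts and Cldn4 and Cdx2 with 0 counts in all libraries. The 5 tested ones summed to 6.48 to 10.3 CPM (median 7.48) in the tumor-free and to 4.37 to 11.2 CPM (median 6.46) in the tumor-bearing mice. Of these 5, 2 had a log2 fold change above 0 and 3 below 0, from -1.13 to 0.95, and 0 were called. The keratin gene Krt18 had 1 to 23 counts in the tumor-free and 0 to 61 in the tumor-bearing libraries. Krt8, which was not tested, had 1 to 9 and 0 to 18. Lymphocyte and lymph node genes were uneven within groups, with a sum of 14.6 to 99.5 CPM (median 31.1) in the tumor-free mice and of 11.1 to 255 CPM (median 17.5) in the tumor-bearing mice. The highest tumor-bearing sum was that of TE replicate 4, and the highest tumor-free sums were those of C replicate 3 and E replicate 1, so the counts of called list members below are also given without these 3 libraries together. T replicate 4 had the highest neutrophil gene sum and TE replicate 4 the next, and those counts are given without this pair as well. In bulk muscle, fewer cells of a type and less RNA per cell cannot be told apart, and this holds for every cell type marker below.

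Tumor-bearing mice had 95 genes at a higher and 86 at a lower level than tumor-free mice in edgeR's quasi-likelihood test, at a p under 0.05 after adjustment by the method of Benjamini and Hochberg. Genes of hemoglobin and heme synthesis, of neutrophils and of the Osmr and Stat3 pathway and the selectin genes Sele and Selp were among those that rose. Genes of the endothelium such as Kdr and Cd200, type IV and type VI collagen chains and the checkpoint kinase gene Chek2 were among those that fell. The 181 called genes were 1.23% of all genes tested, 0.644% in the higher and 0.583% in the lower direction. A fold change above 2 was met by 36 of the higher genes (0.244% of all tested) and a fold change below 0.5 by 13 of the lower genes (0.0881%). The log2 fold changes of the higher genes ranged from 0.16 to 5.51 around a median of 0.82, and lower genes fell by a median of 0.50 on the log2 scale, with a range from 0.19 to 1.85. The median log2 fold change over all tested genes was 0.00089. Members of a gene list that are named below as not called were chosen after their values were seen, unless they are the 2 most abundant members of a list in which no gene was called.

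**Figure D1:**
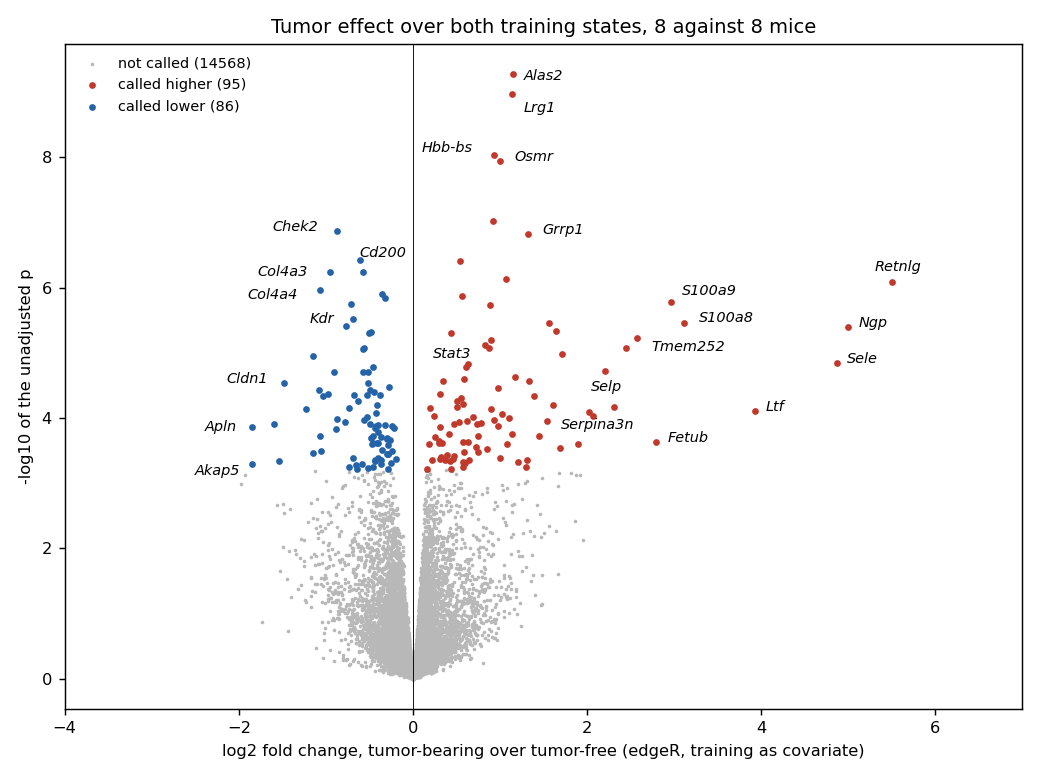
Each point is 1 of 14749 tested genes, with the log2 fold change of tumor-bearing over tumor-free mice on the x axis and -log10 of the unadjusted p of edgeR's quasi-likelihood test on the y axis. Red points are the 95 genes called higher and blue points the 86 called lower at an adjusted p under 0.05, grey points are genes not called, and the genes farthest to the right are Retnlg, Ngp and Sele.

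The 8 tumor-bearing libraries lay wholly above the 8 tumor-free libraries for 35 genes (0.237% of all tested) and wholly below them for 22 genes (0.149%), and 51 of these 57 genes were called. The count of called genes was 113 without C replicate 2 and 118 without E replicate 3, and it lay between 121 and 240 without any other library. It was 139 without T replicate 4 and TE replicate 4 together and 60 without TE replicate 4, C replicate 3 and E replicate 1 together, all 60 of them among the 181. limma-voom called 249 genes, with 105 higher and 144 lower, a different balance of direction from that of edgeR. An exact test without a count model permuted the tumor labels within each training state, which allows 4900 arrangements and a smallest two-sided p of 0.000408. The 69 called genes that the naming rule picked had an exact permutation p of at most 0.0049, but they were chosen on the same contrast in the same libraries, so this is no independent support.

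Genes of red blood cells rose in the tumor-bearing mice. Alas2, the erythroid enzyme that starts heme synthesis, ranged from 7.89 to 11.7 CPM (median 10.4) in the tumor-free mice and from 19.99 to 29.4 CPM (median 20.5) in the tumor-bearing mice. No library of either group overlapped the other, and the difference was the one with the smallest p of all genes (log2 fold change of 1.15, SE 0.0955, adjusted p = 7.82e-06). Hbb-bs, an adult beta-globin gene, ranged from 133 to 214 CPM (median 178) in the tumor-free mice and from 286 to 435 CPM (median 322) in the tumor-bearing mice. Again all tumor-bearing mice lay above all tumor-free mice (log2 fold change of 0.93, SE 0.0926, adjusted p = 4.25e-05). The alpha-globin gene Hba-a1 rose in the same way (log2 fold change 0.92, adjusted p = 2.81e-04), as did Hbb-bt (1.07, adjusted p = 9.04e-04) and Hba-a2 (0.89, adjusted p = 0.00298), although in Hba-a2 1 tumor-bearing library lay within the tumor-free range. The globin copies are close paralogs, so how reads were shared between them is uncertain. Per length, Hbb-bs had a median of 275 FPKM in tumor-free and 502 FPKM in tumor-bearing mice, against 5.14 and 9.97 FPKM for Alas2. FPKM divides fragments by gene length as well as by library size, so levels of different genes are compared on that scale only.

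Of the 14 tested genes in the erythroid and heme list, 5 were called higher and 0 lower by edgeR, against 0.644% and 0.583% of all genes. The other 9 did not pass the test. Slc4a1, the red cell anion exchanger, had a log2 fold change of 1.51, adjusted p = 0.161, and Fech, which inserts iron into heme in all cells, one of 0.06, adjusted p = 0.591. The median over the list was 0.61. The same 5-gene count was called without TE replicate 4, C replicate 3 and E replicate 1, and also without T replicate 4 and TE replicate 4. TE replicate 4 had the highest level of all 5 genes, and without that library alone Hbb-bs was still called. The list summed to 1106 to 1222 CPM (median 1126) in the tumor-free and 1267 to 1603 CPM (median 1383) in the tumor-bearing mice, and the part of residual blood in these values was not tested. In GRCm39, the build of the files, Alas2 lies at chrX:149330371-149353634 on the plus strand and Hbb-bs at chr7:103475730-103482989 on the minus strand.

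Neutrophil genes had the largest fold changes. Retnlg, a resistin-like protein of neutrophils, was counted 5 times over the 8 tumor-free libraries and 272 times over the 8 tumor-bearing ones. It ranged from 0 to 0.0546 CPM (median 0.0127) in the tumor-free mice and from 0.138 to 3.04 CPM (median 0.621) in the tumor-bearing mice, and the groups did not overlap (log2 fold change of 5.51, SE 0.750, adjusted p = 9.31e-04). All 4 C libraries were at 0 counts, and 3 counts would be at most 0.0875 CPM. Ngp, a granule protein of maturing neutrophils, had 5 counts over the tumor-free and 216 over the tumor-bearing libraries (log2 fold change 4.99, adjusted p = 0.00240). The T libraries held 14, 30, 33 and 104 of these and the TE libraries 21, 5, 6 and 3. For Ltf, the granule iron binder lactoferrin, there were 5 and 111 counts, and its groups overlapped (log2 fold change 3.92, adjusted p = 0.0151). Its counts were 11, 18, 21 and 51 in T but 7, 1, 1 and 1 in TE, so 3 of 4 TE libraries lay within the tumor-free range of 0 to 2. The log2 fold change of Ltf was 5.34 in untrained and 1.63 in trained mice, and that of Ngp 6.18 and 3.39 (adjusted p of the interaction = 0.540 and 0.664 by edgeR). Without C replicate 2 or C replicate 4, Ltf was no longer called, with an adjusted p of up to 0.052. Camp, another granule gene, had 0 counts in all tumor-free libraries and 18 over the tumor-bearing ones, too few for the test.

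The alarmins S100a8 and S100a9, which together form calprotectin, were measured at higher counts. S100a9 ranged from 0.263 to 2.63 CPM (median 0.858) in the tumor-free mice and from 4.04 to 24.2 CPM (median 8.73) in the tumor-bearing mice. S100a8 ranged from 0.0824 to 1.27 CPM (median 0.280) in the tumor-free mice and from 2.21 to 11.02 CPM (median 2.93) in the tumor-bearing mice. Neither gene overlapped between the groups, and both rose (log2 fold changes of 2.96, adjusted p = 0.00134 for S100a9, and 3.12, adjusted p = 0.00227 for S100a8). The top tumor-bearing library was T replicate 4 for both genes, and without T replicate 4 and TE replicate 4 together they stayed called, with log2 fold changes of 2.61 for S100a9 and 2.65 for S100a8. Csf3r, the receptor for the granulocyte factor G-CSF, ranged from 0.499 to 1.57 CPM (median 0.850) in the tumor-free mice and from 1.69 to 3.89 CPM (median 2.23) in the tumor-bearing mice, without overlap (log2 fold change of 1.33, SE 0.238, adjusted p = 0.00809). Il1b, a cytokine gene of activated myeloid cells, rose by a log2 fold change of 2.07 (adjusted p = 0.0170), with 7 of 8 tumor-bearing mice above all tumor-free mice. It was not called without T replicate 4 and TE replicate 4 together (adjusted p = 0.062). Neither Il1b (adjusted p = 0.120) nor Csf3r (adjusted p = 0.057) was called without TE replicate 4, C replicate 3 and E replicate 1.

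Over the whole neutrophil list, 13 of 23 genes could be tested, and 7 were called higher and 0 lower. Retnlg, Ngp and Ltf had at most 2 counts in each tumor-free library, so they passed the filter on low counts through the tumor-bearing libraries, where they were high. The median of 1.96 over the 13 tested genes, which all had a log2 fold change above 0, follows in part from that filter and is a description. Those not called included Cxcr2 (1.92, adjusted p = 0.0542), a chemokine receptor, Mmp8 (1.96, adjusted p = 0.178) and Lcn2 (0.61, adjusted p = 0.782). The list summed to 2.72 to 17.2 CPM (median 7.35) in the tumor-free and 11.7 to 58.6 CPM (median 21.3) in the tumor-bearing mice. The count of 7 was 6 without T replicate 4 and TE replicate 4 and 5 without TE replicate 4, C replicate 3 and E replicate 1. Macrophage genes did not pass the test. By edgeR 0 of 27 tested macrophage and monocyte genes were called, and 11 had an unadjusted p under 0.05, against 13.6% of all tested genes. DESeq2 called 4 of the 27, against 429 of all 14749 genes, and limma-voom called 0 of the 27, against 249. Their log2 fold changes were above 0 for 22 of 27 genes, with a median of 0.52, as for the complement gene C1qa (0.52, adjusted p = 0.144) and the lysozyme gene Lyz2 (0.32, adjusted p = 0.620).

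Of the 7 called neutrophil genes, 4 shared a short motif in their promoter. The letters TTGCNNAA, on either strand (TTNNGCAA), make up the core of sites of the C/EBP family, factors that drive granulocyte genes, and were looked for in the RefSeq promoter windows of GRCm38.p6, from 250 bases before to 50 bases after each start. They occurred in 57.1% of the 7 promoters of called neutrophil genes, in 6 of the 11 promoters found for the tested list and in 10.3% of the 11577 promoters of tested genes. They occurred in 10.1% of the 79 promoters of called higher genes and in 10.6% of the 66 promoters of called lower genes. A match is a description of the letters and not a binding site, and the reference is of another mouse strain than BALB/c. The 250 bases before the start of these 4 genes are shown 5′ to 3′ on the gene's strand, because they are among the genes with the largest fold changes, with the motif in capitals.
Ngp at chr9:110419558-110419807 on the plus strand: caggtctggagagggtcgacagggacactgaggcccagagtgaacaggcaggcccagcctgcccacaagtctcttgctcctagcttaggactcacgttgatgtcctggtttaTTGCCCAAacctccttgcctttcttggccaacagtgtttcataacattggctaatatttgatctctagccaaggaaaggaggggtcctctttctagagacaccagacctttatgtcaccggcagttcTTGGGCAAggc
Retnlg at chr16:48872358-48872607 on the plus strand: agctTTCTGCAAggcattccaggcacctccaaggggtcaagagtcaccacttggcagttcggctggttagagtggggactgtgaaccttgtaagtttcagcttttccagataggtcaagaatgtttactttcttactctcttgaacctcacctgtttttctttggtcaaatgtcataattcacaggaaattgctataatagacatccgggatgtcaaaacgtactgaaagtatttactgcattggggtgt
S100a9 at chr3:90695722-90695971 on the minus strand: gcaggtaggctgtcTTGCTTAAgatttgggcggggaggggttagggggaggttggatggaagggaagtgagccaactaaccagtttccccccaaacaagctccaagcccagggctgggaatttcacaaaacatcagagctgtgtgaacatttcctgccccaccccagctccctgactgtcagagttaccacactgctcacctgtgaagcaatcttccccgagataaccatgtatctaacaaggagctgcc
Ltf at chr9:111019042-111019291 on the plus strand: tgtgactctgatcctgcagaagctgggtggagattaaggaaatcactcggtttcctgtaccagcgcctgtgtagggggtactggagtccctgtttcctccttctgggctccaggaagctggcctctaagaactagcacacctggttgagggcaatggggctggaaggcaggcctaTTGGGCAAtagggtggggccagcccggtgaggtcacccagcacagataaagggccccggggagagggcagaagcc
Ngp held 2 matches, which begin 138 and 11 bases before the start, against 1 in each of the others. None of the motifs searched contains another, although matches of different motifs may overlap.

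The selectin genes Sele and Selp, whose proteins capture leukocytes from the blood, rose as members of the endothelial list. Sele, the E-selectin that appears on activated endothelium, had 13 counts over the tumor-free and 395 over the tumor-bearing libraries. It had at most 7 counts in each tumor-free library, so it passed the filter on low counts through the tumor-bearing libraries, where it was high. Its fold change follows in part from that filter and is a description. It ranged from 0 to 0.177 CPM (median 0.0271) in the tumor-free mice and from 0.190 to 5.11 CPM (median 0.646) in the tumor-bearing mice (log2 fold change of 4.86, SE 0.825, adjusted p = 0.00535). The groups did not overlap in CPM, though the lowest tumor-bearing and the highest tumor-free library each had 7 counts. Selp, the P-selectin that endothelium and platelets store, ranged from 2.16 to 5.10 CPM (median 3.68) in the tumor-free mice and from 5.39 to 51.2 CPM (median 11.4) in the tumor-bearing mice (log2 fold change of 2.21, SE 0.384, adjusted p = 0.00637). Its groups did not overlap either. TE replicate 4 was the highest library for both selectins. Without T replicate 4 and TE replicate 4 the log2 fold changes were 3.37 for Sele and 1.54 for Selp, and both stayed called. Sele was not called without TE replicate 4, C replicate 3 and E replicate 1 (adjusted p = 0.057), and limma-voom gave Selp an adjusted p of 0.060.

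The promoter of Sele was among those with the letters TTCNNNGAA, the palindromic core of STAT sites, which reads the same on both strands. This motif was found in 10 of 79 promoters of called higher genes (12.7%), in 3 of 66 of called lower genes (4.55%) and in 8.28% of tested genes. Besides Sele, the 10 were Csf2rb2, Ctla2a, Fas, Ifitm3, Ifitm6, Igtp, Sbno2, Scgb3a1 and Tnfrsf1b. The 250 bases before the start of Sele, in GRCm38.p6, are shown 5′ to 3′ with the motif in capitals, which begins 140 bases before the start.
Sele at chr1:164047984-164048233 on the plus strand: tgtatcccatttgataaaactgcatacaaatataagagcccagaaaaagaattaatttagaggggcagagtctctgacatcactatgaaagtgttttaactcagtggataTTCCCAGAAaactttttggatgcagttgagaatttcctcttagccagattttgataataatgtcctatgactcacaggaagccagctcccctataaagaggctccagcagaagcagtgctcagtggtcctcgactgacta
For comparison, the FoxO core TGTTTAC, on either strand, was found in 6 of the 79 higher and 2 of the 66 lower promoters against 3.27% of tested genes, and the E-box CACGTG in 4 and 5 against 11.3%.

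Kdr, the main receptor for vascular endothelial growth factor, fell. It ranged from 100.4 to 158 CPM (median 143) in the tumor-free mice and from 62.3 to 120.0 CPM (median 78.8) in the tumor-bearing mice, with 6 of 8 tumor-bearing mice below all tumor-free mice (log2 fold change of -0.69, SE 0.103, adjusted p = 0.00216). Cd200, a surface protein that restrains myeloid cells, ranged from 52.3 to 71.1 CPM (median 58.9) in the tumor-free mice and from 32.4 to 45.9 CPM (median 40.3) in the tumor-bearing mice. Its groups did not overlap (log2 fold change of -0.57, SE 0.0761, adjusted p = 7.79e-04). Apln, the ligand of the apelin receptor made by sprouting vessels and muscle, fell by 1.85 on the log2 scale (adjusted p = 0.0196), from a median of 3.43 to one of 0.793 CPM. Emcn, a surface sialomucin of capillaries and veins, fell by 0.40 (adjusted p = 0.0189). Grrp1, a glycine- and arginine-rich protein, rose and did not overlap (log2 fold change 1.32, adjusted p = 3.15e-04).

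Other endothelial markers took no common direction. Of 27 tested endothelial genes, 3 were called higher (Grrp1, Sele and Selp) and 4 lower (Cd200, Kdr, Emcn and Apln), with a median of 0.20 and a sum of 1131 to 1466 CPM (median 1332) in the tumor-free and 1163 to 1617 CPM (median 1337) in the tumor-bearing mice. Cd200 and Grrp1 were put on this list with their earlier result known, so they add no independent count. Without TE replicate 4, C replicate 3 and E replicate 1, 2 were called higher and 2 lower, with Apln (adjusted p = 0.133) and Emcn (adjusted p = 0.0878) among those lost. Without T replicate 4 and TE replicate 4, 3 were called higher and 3 lower, without Emcn (adjusted p = 0.0616). The list median was 0.11 without T replicate 3. Pecam1 and Cdh5, junction proteins of all endothelium that were chosen after their values were seen, had log2 fold changes of 0.20, adjusted p = 0.430 for Pecam1, and -0.20, adjusted p = 0.113 for Cdh5. Flt1, another receptor of that growth factor family, also chosen after its values were seen, had one of 0.28, adjusted p = 0.214. Some further vessel genes, also chosen after their values were seen, passed the test. Angpt2, an angiopoietin released by endothelium, fell by 0.90 (adjusted p = 0.00637), and the pericyte-recruiting factor Pdgfb fell by 0.53 (adjusted p = 0.0170). Cav1 and Cav2, which build the caveolae that are abundant in capillaries, both fell by 0.32 (adjusted p = 0.00126 for Cav1 and 0.0189 for Cav2). The groups did not overlap for Cav1. The calls of Pdgfb (adjusted p = 0.124), Angpt2 (0.0573) and Cav2 (0.0797) were lost without TE replicate 4, C replicate 3 and E replicate 1. The arterial connexin gene Gja5 rose (log2 fold change 0.82, adjusted p = 0.00350).

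**Figure D2:**
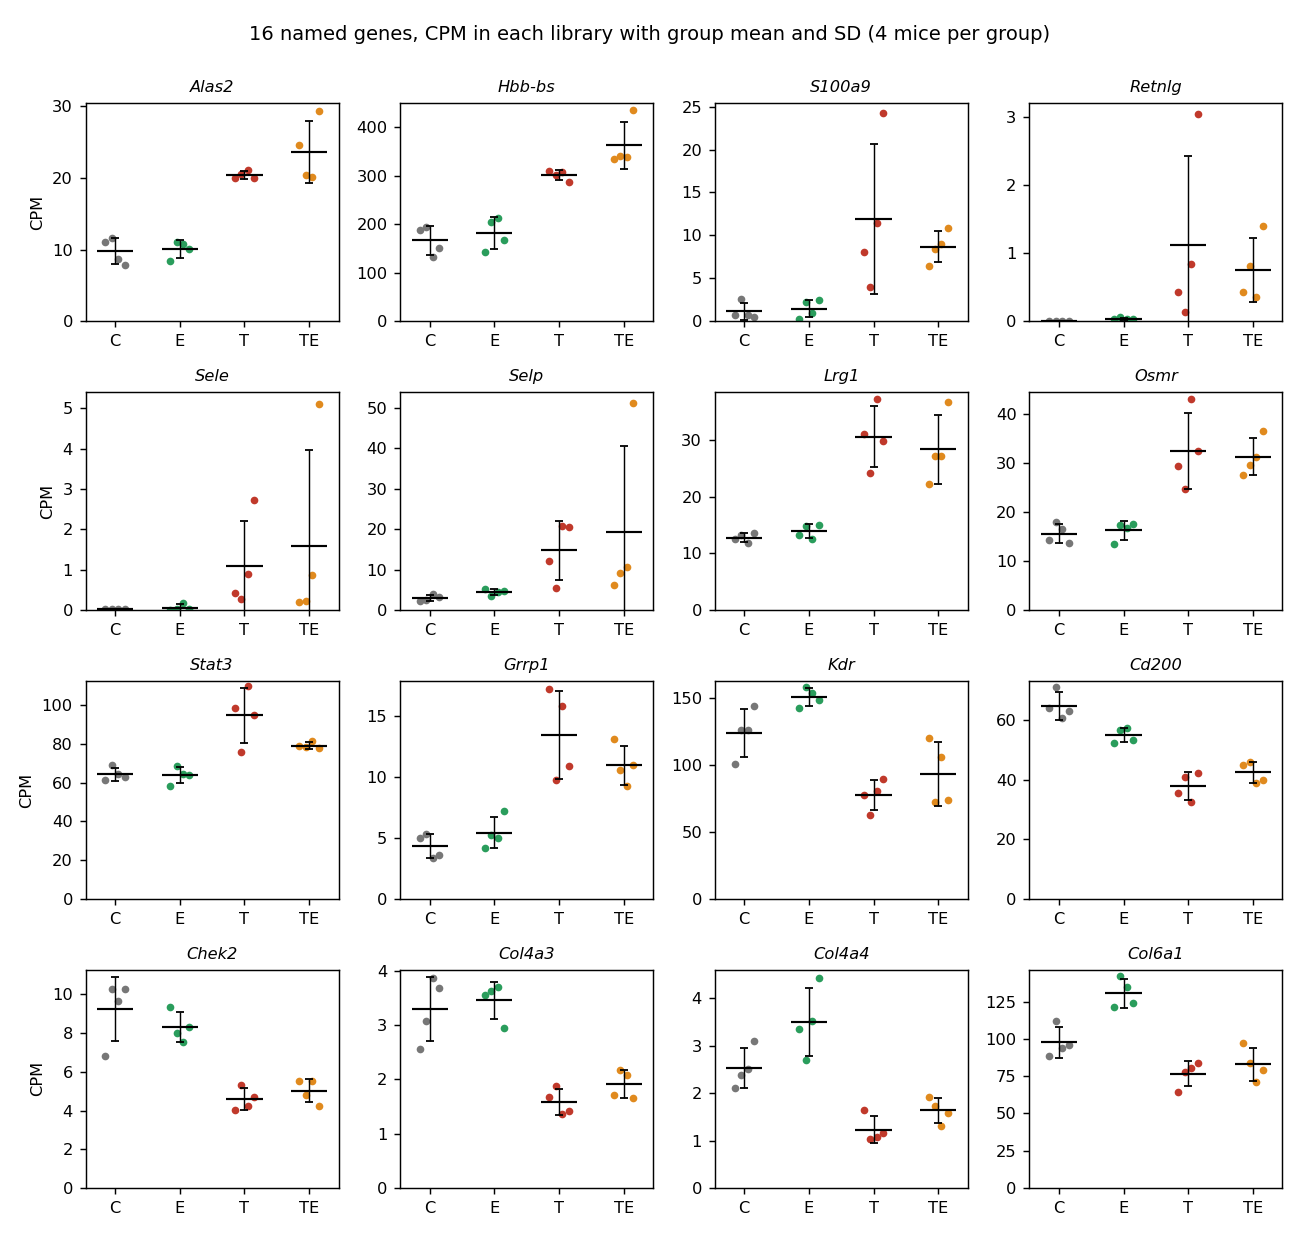
CPM of 16 named genes in each library by group, with 4 points per group, the mean as a bar and the SD as an error bar that is not drawn below 0. Alas2, Lrg1, Osmr and Retnlg lie higher in all 8 tumor-bearing (T and TE) than in all 8 tumor-free (C and E) libraries, Chek2, Cd200 and Col4a3 lie lower in all 8, and Kdr and Col6a1 overlap.

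Genes of the interleukin-6 family pathway that rose were a receptor, the transcription factor below it and some of its targets. Osmr, the receptor chain for oncostatin M, ranged from 13.5 to 17.9 CPM (median 16.7) in the tumor-free mice and from 24.8 to 43.1 CPM (median 30.5) in the tumor-bearing mice, and no libraries overlapped (log2 fold change of 1.00, SE 0.101, adjusted p = 4.25e-05). Stat3 ranged from 58.2 to 69.0 CPM (median 64.2) in the tumor-free mice and from 75.6 to 109.9 CPM (median 80.1) in the tumor-bearing mice, again without overlap (log2 fold change of 0.43, SE 0.0673, adjusted p = 0.00256). Bcl3, an NF-kappa B cofactor that Stat3 is known to induce, rose without overlap (log2 fold change 1.39, adjusted p = 0.0108). The shared signal chain Il6st (0.18, adjusted p = 0.276), the ligand-binding chain Il6ra (0.61, adjusted p = 0.304) and the feedback inhibitor Socs3 (0.63, adjusted p = 0.304) did not pass the test. Leaving out 1 library gave Socs3 a log2 fold change of 0.48 to 0.92 and an adjusted p of 0.0237 to 0.477. E replicate 4 had 12.3 CPM of Socs3, against 3.50 to 5.69 CPM in the other tumor-free libraries. The ligand genes Il6, Osm and Il11 were too low to be tested. In the list as a whole 28 genes were tested, 3 were called higher and 0 lower, 23 had a log2 fold change above 0, and the median was 0.30. Without TE replicate 4, C replicate 3 and E replicate 1, 2 were called, without Bcl3 (adjusted p = 0.0552), and without T replicate 4 and TE replicate 4, 3 were called. Leaving out T replicate 2 or TE replicate 1 raised the count to 7. Sbno2, a gene that Stat3 is known to raise, was chosen after its values were seen and rose (log2 fold change 0.59, adjusted p = 0.00781), though not without TE replicate 4, C replicate 3 and E replicate 1 (adjusted p = 0.0815).

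Acute phase proteins, which the liver secretes during inflammation, were also measured in muscle. Lrg1, a leucine-rich glycoprotein of this class, ranged from 11.8 to 15.1 CPM (median 13.2) in the tumor-free mice and from 22.3 to 37.2 CPM (median 28.5) in the tumor-bearing mice. All 8 tumor-bearing libraries lay above all tumor-free ones (log2 fold change of 1.14, SE 0.0995, adjusted p = 7.89e-06). In GRCm39, Lrg1 lies at chr17:56426283-56429001 on the minus strand, Osmr at chr15:6843053-6904450 on the minus strand and Stat3 at chr11:100775924-100830450 on the minus strand. Serpina3n, a protease inhibitor, rose from a median of 4.07 to one of 11.1 CPM (log2 fold change 1.54, adjusted p = 0.0185), and Lbp, which binds bacterial lipopolysaccharide, from 10.01 to 19.7 CPM (log2 fold change 0.98, adjusted p = 0.0194). Both overlapped between the groups and were no longer called without C replicate 2 or without C replicate 4, with adjusted p-values of up to 0.054 and 0.056. Of 14 tested genes 3 were called higher and 0 lower, with a median of 0.58. Lrg1 was the 1 gene still called without TE replicate 4, C replicate 3 and E replicate 1, at a list median of 0.30, and without T replicate 4 and TE replicate 4, at a median of 0.38. Without TE replicate 4 alone the median was 0.35 with 3 called, and without C replicate 2 or C replicate 4 the count was 1. A further 12 of the 26 listed, such as the serum amyloid genes Saa1, Saa2 and Saa3, were too low to be tested. Serpina3n has close paralogs, and reads may be divided between them.

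Other inflammatory groups had smaller counts. The complement genes Cfb (log2 fold change 1.08, adjusted p = 0.0282) and C4b (1.31, adjusted p = 0.0410), which build the convertases of the alternative and classical pathways, were the 2 called of 18, but Cfb was not called in 7 and C4b in 12 of the 16 fits that left out 1 library each (adjusted p of up to 0.0657 and 0.101). Neither was called without TE replicate 4, C replicate 3 and E replicate 1, or without T replicate 4 and TE replicate 4, and the list median of 0.31 was 0.17 without T replicate 3 and 0.18 without T replicate 4 and TE replicate 4. Among 36 tested NF-kappa B genes 25 had a log2 fold change above 0, at a list median of 0.10, and 4 were called higher. These were Bcl3, Il1b, the kinase gene Map3k6 (log2 fold change 1.14, adjusted p = 0.0238) and the nuclear inhibitor gene Nfkbiz (0.75, adjusted p = 0.0345). Map3k6 was put on that list with earlier results known, and it was not called without E replicate 3, C replicate 2 or C replicate 4 (adjusted p of up to 0.0671), and Nfkbiz was not called in 11 of the 16 fits (adjusted p of up to 0.0818). The NF-kappa B median was 0.06 without T replicate 4, 0.16 without TE replicate 3, 0.04 without TE replicate 4 and 0.02 without T replicate 4 and TE replicate 4. The NF-kappa B count was 0 without TE replicate 4, C replicate 3 and E replicate 1, 1 without T replicate 4 and TE replicate 4, and 2 without E replicate 3, C replicate 2 or C replicate 4. Among 44 tested interferon-induced genes 3 were called higher, the GTPases Igtp (log2 fold change 0.51, adjusted p = 0.0122), Gbp4 (0.69, adjusted p = 0.0170) and Iigp1 (0.59, adjusted p = 0.0349), which act against microbes within cells. In that list 27 genes had a log2 fold change above 0, at a median of 0.05. That median was 0.0047 without TE replicate 4, 0.01 without TE replicate 1, and 0.02 without E replicate 2 or E replicate 4. Iigp1 was not called in 10 of the 16 fits (adjusted p of up to 0.0781). The interferon count was 2 without TE replicate 4, C replicate 3 and E replicate 1, without Igtp (adjusted p = 0.0619), and 3 without T replicate 4 and TE replicate 4. Gbp and related GTPase genes have close paralogs, so their counts are uncertain. Ifitm3, an antiviral membrane protein outside that list, ranged from 58.2 to 80.0 CPM (median 65.1) in the tumor-free mice and from 85.7 to 109.6 CPM (median 98.2) in the tumor-bearing mice, without overlap (log2 fold change of 0.55, SE 0.0703, adjusted p = 6.37e-04). For the 18 genes of MHC class I and the immunoproteasome, edgeR, DESeq2 and limma-voom called 0. An unadjusted p under 0.05 was met by 9, against 13.6% of all tested genes, and all 18 log2 fold changes were above 0 with a median of 0.24. By state, the median was 0.02 for T against C, with 11 of 18 above 0, and 0.40 for TE against E, with 18 of 18 above 0.

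The collagen genes that passed the test all fell. Col4a3 and Col4a4, chains of the type IV collagen network that is best known from the kidney glomerulus, are neighbors in the genome, and both fell. Col4a3 ranged from 2.57 to 3.86 CPM (median 3.59) in the tumor-free mice and from 1.37 to 2.17 CPM (median 1.69) in the tumor-bearing mice (log2 fold change of -0.96, SE 0.127, adjusted p = 7.79e-04). Col4a4 ranged from 2.099 to 4.43 CPM (median 2.90) in the tumor-free mice and from 1.02 to 1.93 CPM (median 1.44) in the tumor-bearing mice (log2 fold change of -1.07, SE 0.149, adjusted p = 0.00115). Neither overlapped between the groups. In GRCm39, Col4a3 lies at chr1:82564642-82699780 on the plus strand and Col4a4 at chr1:82426144-82564800 on the minus strand, so their annotated start sites are 158 bases apart and transcribed in opposite directions.

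The rest of the type IV family, described whole after these values were seen, was split. Col4a5, the third chain of that network, which lies on chromosome X, fell by 0.88 (adjusted p = 0.0203), although it was not called without TE replicate 3 (adjusted p = 0.052), without T replicate 4 and TE replicate 4 (0.0616), or without TE replicate 4, C replicate 3 and E replicate 1 (0.0946). Col4a6 had 0 to 5 counts per library and was not tested. Col4a1 and Col4a2, the chains of the network around every muscle fiber and capillary, did not pass the test (log2 fold changes of -0.11, adjusted p = 0.830 for Col4a1, and -0.13, adjusted p = 0.742 for Col4a2). Per length, Col4a1 had a median of 40.5 FPKM and Col4a2 one of 30.2 FPKM in the tumor-free mice, whereas Col4a3 had 0.409, Col4a4 0.276 and Col4a5 0.638 FPKM, so the chains that fell were the scarce ones. Nid2, a nidogen that links basement membrane networks, was also chosen after its values were seen and fell by 0.53 (adjusted p = 0.0107).

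The collagen list does not hold Col4a3, Col4a4 or Col4a5, so its counts and medians leave them out. In that list 20 genes were tested, 0 were called higher and 3 lower, and 17 had a log2 fold change under 0, with a median of -0.28. The count was 2 without TE replicate 4, C replicate 3 and E replicate 1 and 4 without T replicate 4 and TE replicate 4, and 5 without T replicate 4 alone. Col6a1 ranged from 88.3 to 142 CPM (median 117) in the tumor-free mice and from 64.6 to 97.4 CPM (median 79.5) in the tumor-bearing mice (log2 fold change of -0.51, SE 0.0789, adjusted p = 0.00256). Col6a2, which joins Col6a1 in the microfibrils of type VI collagen around muscle fibers, fell by 0.57 (adjusted p = 0.00359). In both, 7 of 8 tumor-bearing mice lay below all tumor-free mice. Col15a1, of the outer basement membrane, fell by 0.36 (adjusted p = 0.0410), but it was not called in 13 of the 16 fits that left out 1 library each (adjusted p of up to 0.0888). The fibrillar genes Col1a1 (-0.21, adjusted p = 0.761) and Col3a1 (-0.31, adjusted p = 0.470) did not pass the test. Timp2, an inhibitor of matrix metalloproteases, fell by 0.38 (adjusted p = 0.0107) and the aggrecanase gene Adamts5 by 0.40 (adjusted p = 0.0224), as 2 of 34 in their list. Adamts5 was not called without E replicate 3 or C replicate 4 (adjusted p of up to 0.0522). Gsn, the actin-severing protein gelsolin, fell by 0.45 (adjusted p = 0.0478) and the progenitor surface gene Ly6a rose (log2 fold change 0.55, adjusted p = 0.0110), as 2 of 16 genes of fibroblasts, although Gsn was not called in 14 of the 16 fits (adjusted p of up to 0.114). Without TE replicate 4, C replicate 3 and E replicate 1 neither of these lists had a called gene, and without T replicate 4 and TE replicate 4 each had 1. By edgeR 0 of 15 tendon and cartilage-like genes were called, and 4 had an unadjusted p under 0.05, against 13.6% of all tested genes. DESeq2 and limma-voom called 3 and 4 of the 15 genes lower. The median of these 15 genes was 0.26 for T against C, with 10 above 0, and -1.19 for TE against E, with 1 above 0.

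Over the collagen list the median log2 fold change was 0.08 for T against C, with 14 of 20 genes above 0, and -0.60 for TE against E, with 1 of 20 above 0. For Col6a1 the levels were 97.7 ± 10.2 CPM in C, 131 ± 9.66 in E, 76.6 ± 8.34 in T and 82.9 ± 11.1 in TE (mean ± SD, n = 4 each). The log2 fold change was -0.35 for T against C (adjusted p = 0.116) and -0.66 for TE against E (adjusted p = 0.00698). Training also entered this pair of values, since the 4 E libraries of Col6a1 lay above the 4 C libraries, and the interaction was not called (adjusted p = 0.540 by edgeR).

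Schwann cell and myelin genes all had negative values. Of 18 tested genes, 18 had a log2 fold change under 0, with a median of -0.47 and a range from -0.74 to -0.22. S100b, a calcium-binding protein of Schwann cells, was the single gene that passed the test (log2 fold change -0.73, adjusted p = 0.0475). An unadjusted p under 0.05 was met by 12 of the 18, against 13.6% of all tested genes. Mbp (-0.74, adjusted p = 0.106), which compacts the myelin sheath, did not pass. The summed level was 441 to 1175 CPM (median 624.8) in the tumor-free and 381 to 772 CPM (median 527) in the tumor-bearing mice, so the groups overlapped. S100b was not called in 11 of the 16 fits that left out 1 library each (adjusted p of up to 0.0973), and it was not called in either fit without several libraries. Pmp2, another myelin protein gene outside that list, fell by 1.07 (adjusted p = 0.0244), and was not called without E replicate 2, E replicate 3, C replicate 2 or T replicate 1 (adjusted p of up to 0.0570).

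**Figure D3:**
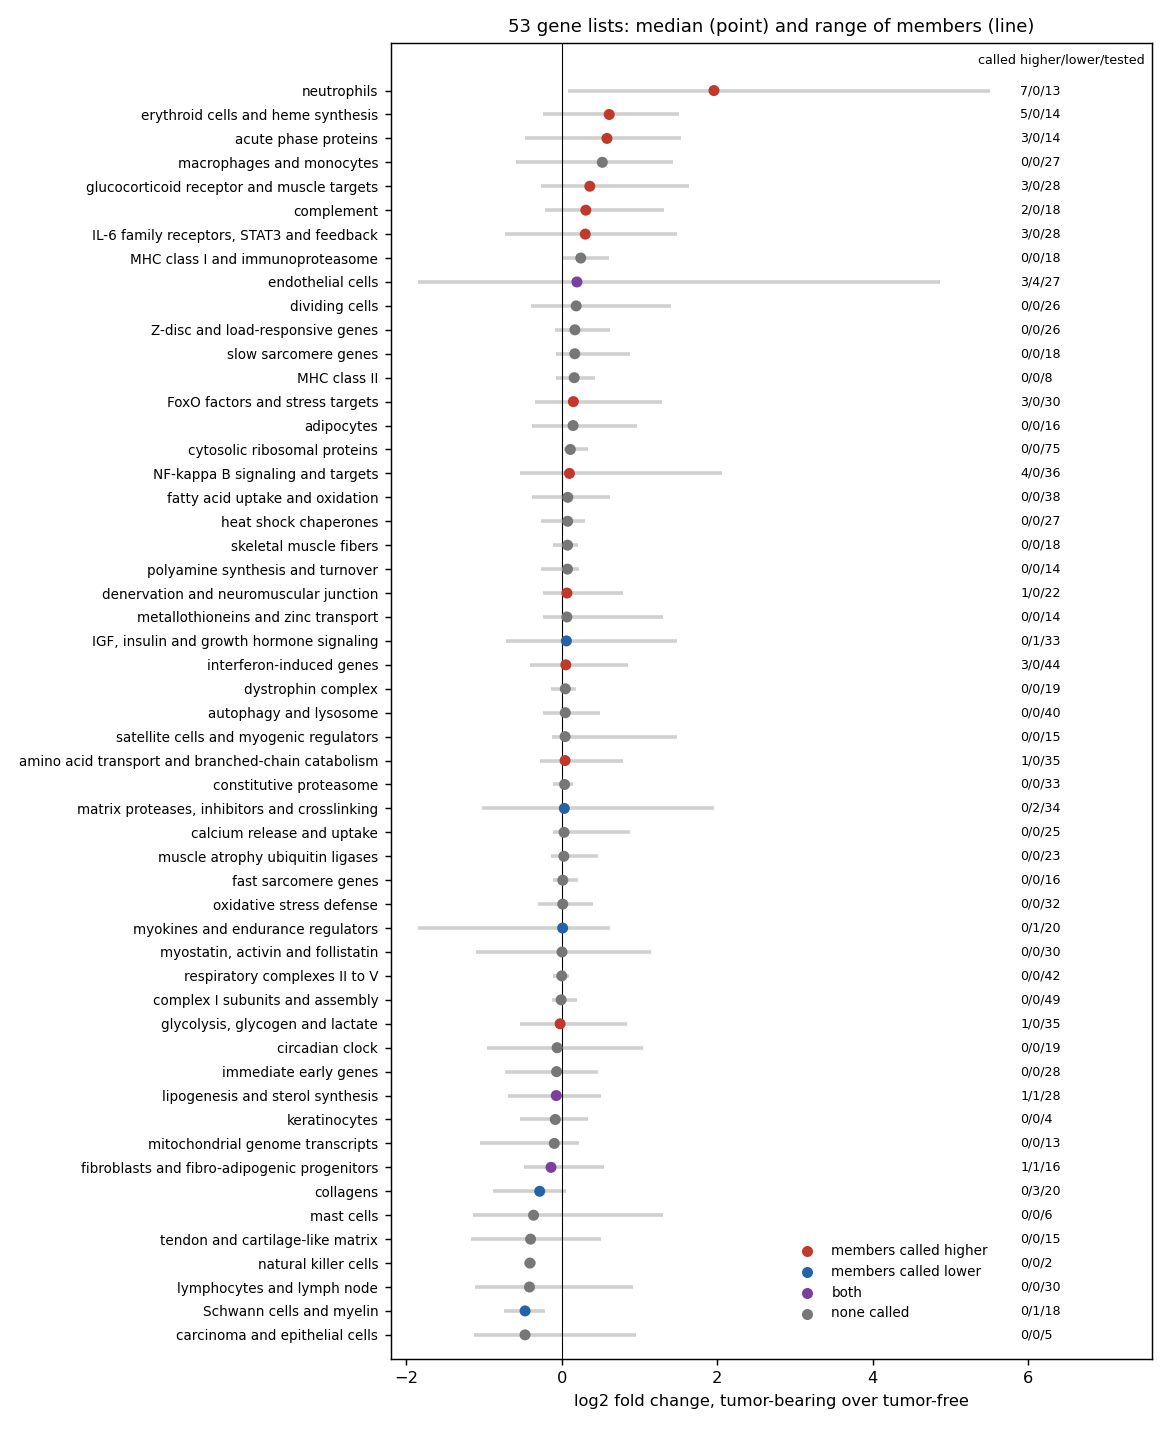
Median (point) and range (line) of the log2 fold changes of tumor-bearing over tumor-free mice for the tested members of 53 gene lists, with the numbers called higher, called lower and tested at the right. The neutrophil list has the highest median at 1.96, over genes of which some passed the filter on low counts through the tumor-bearing mice, and the carcinoma and Schwann cell lists the lowest at -0.47.

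Chek2, which encodes a kinase of the DNA damage checkpoint, was the lower gene with the smallest p. It ranged from 6.79 to 10.3 CPM (median 8.85) in the tumor-free mice and from 4.04 to 5.54 CPM (median 4.77) in the tumor-bearing mice, with no overlap (log2 fold change of -0.87, SE 0.104, adjusted p = 3.15e-04). Marcks, a substrate of protein kinase C at the membrane, ranged from 46.8 to 58.1 CPM (median 52.6) in the tumor-free mice and from 37.4 to 44.1 CPM (median 41.1) in the tumor-bearing mice, also without overlap (log2 fold change of -0.36, SE 0.0505, adjusted p = 0.00123). Denn2b, which encodes a DENN domain protein, fell by 0.61 (adjusted p = 6.37e-04). Igfbp6, a binding protein for insulin-like growth factor II, fell by 0.71 (adjusted p = 0.00134), the 1 called gene of 33 in the list of insulin, growth factor and growth hormone signaling. In GRCm39, Chek2 lies at chr5:110987826-111022011 on the plus strand and Marcks at chr10:37009239-37014942 on the minus strand.

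Among the largest decreases were genes at low levels. Apln and Akap5, an anchor protein for protein kinase A, both fell by 1.85 on the log2 scale, Akap5 from a median of 1.49 to one of 0.382 CPM without overlap (adjusted p = 0.0444). Cldn1, a tight junction protein that in nerve is known from the perineurium, ranged from 4.93 to 10.4 CPM (median 6.93) in the tumor-free mice and from 0.664 to 4.55 CPM (median 2.15) in the tumor-bearing mice (log2 fold change of -1.48, SE 0.267, adjusted p = 0.00822). Foxd2, a forkhead factor, fell by 1.60 (adjusted p = 0.0189) and the unnamed gene Gm33480 by 1.54 (adjusted p = 0.0414). In the tumor-bearing libraries Foxd2 had 2 to 9 and Gm33480 2 to 7 counts. Both passed the filter on low counts through the tumor-free libraries, with 9 to 28 and 6 to 19 counts, so their fold changes follow in part from that filter. Prdm1, a transcriptional repressor, fell by 1.23, Akr1c14, a steroid-metabolizing reductase, and Sez6l2, a neuronal membrane protein, each by 1.15, and Nos2, the inducible nitric oxide synthase, by 1.07. Their adjusted p-values were 0.0140 for Prdm1, 0.00434 for Akr1c14, 0.0354 for Sez6l2 and 0.00984 for Nos2. Cldn1, Prdm1 and Nos2 did not overlap between the groups. Akap5 was not called in 11, Gm33480 in 13 and Sez6l2 in 10 of the 16 fits that left out 1 library each, with adjusted p-values of up to 0.109, 0.107 and 0.0921. Prdm1 (adjusted p = 0.115), Foxd2 (0.148) and Nos2 (0.0834) were not called without TE replicate 4, C replicate 3 and E replicate 1, nor Foxd2 without T replicate 4 and TE replicate 4 (0.0638).

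Among the largest increases outside the neutrophil and selectin genes were Fetub, a fetuin known from liver (log2 fold change 2.80, adjusted p = 0.0280), and Tmem252, a membrane protein gene (2.58, adjusted p = 0.00296). St14, the membrane protease matriptase, was near its detection limit in the tumor-free mice, with 0.0263 to 0.192 CPM (median 0.117) in the tumor-free mice and 0.249 to 1.08 CPM (median 0.567) in the tumor-bearing mice (log2 fold change 2.45, adjusted p = 0.00359). Cd300lf, an inhibitory receptor of myeloid cells, rose by a log2 fold change of 2.31 (adjusted p = 0.0140). Tmem252 and St14 did not overlap between the groups. Fetub, Cd300lf and St14 had at most 9, 7 and 7 counts in each tumor-free library. They passed the filter on low counts through the tumor-bearing libraries, where they had up to 87, 22 and 41 counts. Their fold changes follow in part from that filter and are a description. Fetub was not called in 6 of the 16 fits (adjusted p of up to 0.0710). Cd300lf was not called without TE replicate 4, C replicate 3 and E replicate 1 (adjusted p = 0.130) or without T replicate 4 and TE replicate 4 (0.0616).

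Genes of muscle wasting were mostly not called. By edgeR, DESeq2 and limma-voom 0 of 23 tested atrophy ubiquitin ligases were called, and 1 had an unadjusted p under 0.05. Fbxo32, the ligase atrogin-1, had a median of 437 CPM in tumor-free and 524 CPM in tumor-bearing mice (log2 fold change 0.47, adjusted p = 0.504), with 0.96 for T against C and -0.01 for TE against E. T replicate 3 stood at 1299 CPM against 421 to 576 CPM in the other T libraries, and without it the log2 fold change over both states was 0.21. Trim63, the ligase MuRF1, chosen after its values were seen, had a log2 fold change of 0.24, adjusted p = 0.587. The list median was 0.03, with a range from 0.0075 without C replicate 2 to 0.06 without E replicate 3 when 1 library was left out. The constitutive proteasome had a median of 0.04 over 33 genes (from 0.02 without C replicate 3 to 0.06 without C replicate 1) and the autophagy and lysosome list one of 0.05 over 40 genes, and edgeR called 0 genes in each, with 3 and 5 genes at an unadjusted p under 0.05. DESeq2 called 0 of these, and limma-voom 0 of the proteasome and 1 of the autophagy genes.

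Of 30 tested FoxO factors and stress targets, 24 had a log2 fold change above 0 and 3 were called higher. Foxo1, the forkhead factor that insulin signaling restrains, ranged from 22.9 to 33.5 CPM (median 26.8) in the tumor-free mice and from 29.8 to 44.8 CPM (median 37.9) in the tumor-bearing mice (log2 fold change of 0.47, SE 0.0965, adjusted p = 0.0189). Gadd45a (log2 fold change 0.39, adjusted p = 0.0366), a growth arrest gene that is also raised in denervated muscle, and Cdkn1a (1.00, adjusted p = 0.0402), the cell cycle inhibitor p21, were the others. For Foxo1, 5 of 8 tumor-bearing mice lay above all tumor-free mice. Without C replicate 2 Foxo1 had an adjusted p of 0.052, and Gadd45a and Cdkn1a were each not called in 10 of the 16 fits that left out 1 library (adjusted p of up to 0.0827 and 0.101). The FoxO count was 0 without C replicate 2, 0 without TE replicate 4, C replicate 3 and E replicate 1 and 1 without T replicate 4 and TE replicate 4. In the glucocorticoid list 27 of 28 log2 fold changes were above 0, with a median of 0.36. In that list 17 genes had an unadjusted p under 0.05, against 13.6% of all tested genes, and 3 were called. The called ones were Slc10a6 (log2 fold change 1.64, adjusted p = 0.00256), a steroid sulfate carrier, Acer2 (0.94, adjusted p = 0.0183), a ceramidase, and Cdkn1a. Slc10a6 and Acer2 were put on that list with earlier results known. Fkbp5 (1.205, adjusted p = 0.0657) and Ddit4 (1.29, adjusted p = 0.0657), typical glucocorticoid targets, did not pass the test. The count of 3 was 2 to 5 when 1 library was left out, with 5 without T replicate 2, TE replicate 1 or TE replicate 2 and 2 without E replicate 1, E replicate 3, E replicate 4, C replicate 2, C replicate 3, C replicate 4, TE replicate 3 or TE replicate 4. Without TE replicate 4, C replicate 3 and E replicate 1 it was 1, and it was 1 without T replicate 4 and TE replicate 4.

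No gene was called in the lists of sarcomere genes, respiratory complexes or ribosomal proteins. Across 33 of the 53 lists edgeR called 0 genes, and of their 747 different tested members 135 had an unadjusted p under 0.05, against 13.6% of all tested genes, while DESeq2 called 19 and limma-voom 8. Myh4, the fastest myosin heavy chain, had a median of 30834 CPM in tumor-free and 32292 CPM in tumor-bearing mice (log2 fold change 0.10, adjusted p = 0.455), and the calcium pump gene Atp2a1 had one of 0.08, adjusted p = 0.465. Over 49 genes of complex I the log2 fold changes had a median of -0.01 and a range from -0.12 to 0.19, and over 42 genes of complexes II to V a median of -1.45e-04 and a range from -0.11 to 0.10, with 1 gene at an unadjusted p under 0.05 in each and 0 called by DESeq2 or limma-voom. These medians combine opposite signs by state. Complex I had a median of -0.07 for T against C, with 8 of 49 genes above 0, and of 0.07 for TE against E, with 43 of 49 above 0. Complexes II to V had -0.06, with 7 of 42 above 0, and 0.06, with 36 of 42 above 0. Transcripts of the mitochondrial genome had a median of -0.10 over 13 genes, which was 0.02 without E replicate 2, with 1 at an unadjusted p under 0.05 and 0 called by DESeq2 or limma-voom. All 75 cytosolic ribosomal protein genes had a log2 fold change above 0, with a median of 0.11, and 27 had an unadjusted p under 0.05, but edgeR and limma-voom called 0 and DESeq2 1. With DESeq2's size factors in edgeR the count above 0 was still 75, but it was 66 of 75, with a median of 0.05, without TE replicate 4, C replicate 3 and E replicate 1.

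Metabolic genes that passed the test were few. Ppp1r3c, which targets a phosphatase to glycogen, rose from a median of 331 to one of 626 CPM (log2 fold change 0.85, adjusted p = 0.0319), as 1 of 35 in its list. Srebf1, the lipogenic transcription factor, rose (log2 fold change 0.50, adjusted p = 0.0140), while Hmgcs1, of sterol synthesis, fell by 0.24 (adjusted p = 0.0195) without overlap between the groups. Slc3a2, the heavy chain of amino acid exchangers, rose (log2 fold change 0.30, adjusted p = 0.0274). Of the 16 fits that left out 1 library each, Ppp1r3c was not called in 7 and Slc3a2 in 5 (adjusted p of up to 0.0821 and 0.0682). None of these 4 genes was called without TE replicate 4, C replicate 3 and E replicate 1, and without T replicate 4 and TE replicate 4 Srebf1 and Slc3a2 were. Fatty acid oxidation genes had a median of 0.08, and 0 of 38 were called by edgeR, with 7 at an unadjusted p under 0.05, 2 called by DESeq2 and 1 by limma-voom.

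The same comparison within each training state used separate mice, T against C and TE against E. In untrained mice 100 genes were called (0.678% of all tested, 76 higher and 24 lower), and in trained mice 34 (0.231%, 17 and 17). The number in untrained mice depended on single libraries, with 16 without C replicate 4, 34 without C replicate 3, 37 without T replicate 3, 53 without C replicate 2 and 255 without T replicate 2. In trained mice it was 18 without E replicate 3, 19 without TE replicate 2 and 21 without E replicate 2 or TE replicate 3, and between 23 and 33 otherwise. When each fit held only the 2 groups compared, so that they did not share an estimate of the spread, 30 genes were called in untrained and 96 in trained mice, the opposite order. The number of calls therefore does not compare the training states. Called in both were 12 genes, which is 12% of the untrained and 35.3% of the trained list. They were the erythroid genes Alas2, Hba-a1, Hbb-bs and Hbb-bt, then Lrg1, Osmr, Ifitm3 and Grrp1, all higher, and Chek2, Col4a4 and Denn2b, all lower, together with the cytokine receptor kinase gene Jak3, which was chosen after its values were seen (log2 fold change 0.88, adjusted p = 0.00134).

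Values in one state were set beside those of the other state, which holds other libraries. Both came from 1 fit over all 16 libraries and share each gene's estimate of spread, so a gene with a low estimate has smaller p-values in both, and the counts are a description. Of the 100 genes called in untrained mice, 87 had the same sign in trained mice, and 49 had the same sign with an unadjusted p under 0.05 there, where 9.23% of all genes had such a p. Their median log2 fold change in the called direction was 0.85 in untrained and 0.31 in trained mice. Of the 34 genes called in trained mice, 31 had the same sign in untrained mice, and 22 had it with an unadjusted p under 0.05, against 14.2% of all genes. Their median was 0.87 in trained and 0.36 in untrained mice. In each case the median was larger in the state whose own values chose the genes. Across all tested genes the log2 fold changes of both states had a Pearson r of 0.05 and the same sign in 53.4%, a description in which genes are not independent.

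**Figure D4:**
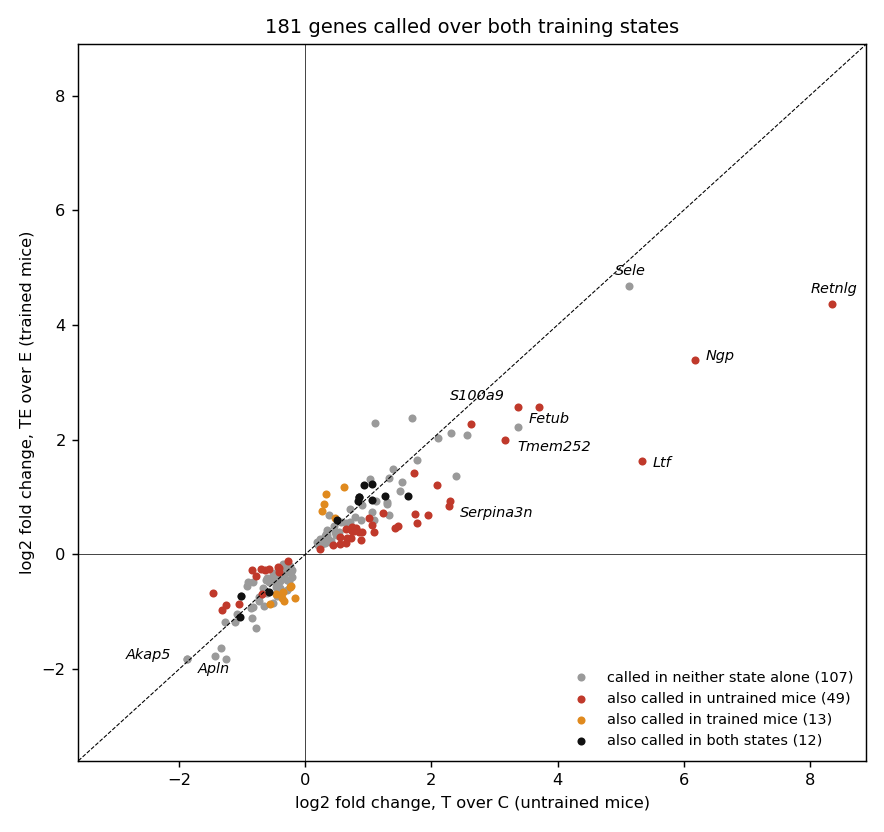
Each of the 181 genes called over both training states is placed by its log2 fold change of T over C on the x axis and of TE over E on the y axis, and colors give the states in which it was also called alone. All 181 lie in the quadrants of equal sign, 107 of them were called in neither state alone, and Retnlg, with 0 counts in the C group, is drawn at a fitted value that depends on the prior and is no bound.

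All 181 genes called over both states had the same sign in each, and 107 of them were called in neither state alone. The choice over both states favors such genes, so this is a description. The log2 fold change was larger in size in untrained mice for 113 of the 181, for 70 of the 95 higher and 43 of the 86 lower genes. Whether the effect differed was tested as an interaction of tumor and training, and edgeR called 0 genes (0.0% of all tested, smallest adjusted p = 0.389). There were 1358 genes with an unadjusted p under 0.05, 29 of them among the 181, and DESeq2 called 20. The erythroid genes Alas2 (1.06 untrained, 1.23 trained) and Hbb-bs (0.86 and 0.99) had similar log2 fold changes in each state, with standard errors of 0.135 and 0.135 for Alas2.

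Acute phase genes had their larger values in untrained mice and interferon-induced GTPases in trained mice, but none of these differences was called. Serpina3n had a log2 fold change of 2.28 in untrained and 0.84 in trained mice (adjusted p of the interaction = 0.454 by edgeR), and Lbp of 1.47 and 0.49 (adjusted p = 0.438). For Gbp4 the values were 0.32 in untrained and 1.05 in trained mice (adjusted p of the interaction = 0.438 by edgeR), and for Igtp 0.27 and 0.75 (adjusted p = 0.438). Cd200 fell by 0.78 in untrained and by 0.37 in trained mice (adjusted p of the interaction = 0.438 by edgeR). Over whole lists, the median of acute phase genes was 1.02 in untrained and 0.18 in trained mice, that of complement genes 0.52 and 0.03, that of interferon-induced genes -0.12 and 0.26, and that of matrix proteases and their inhibitors 0.45 and -0.31. Col4a4 had nearly the same value in each (-1.04 and -1.10).

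**Figure D5:**
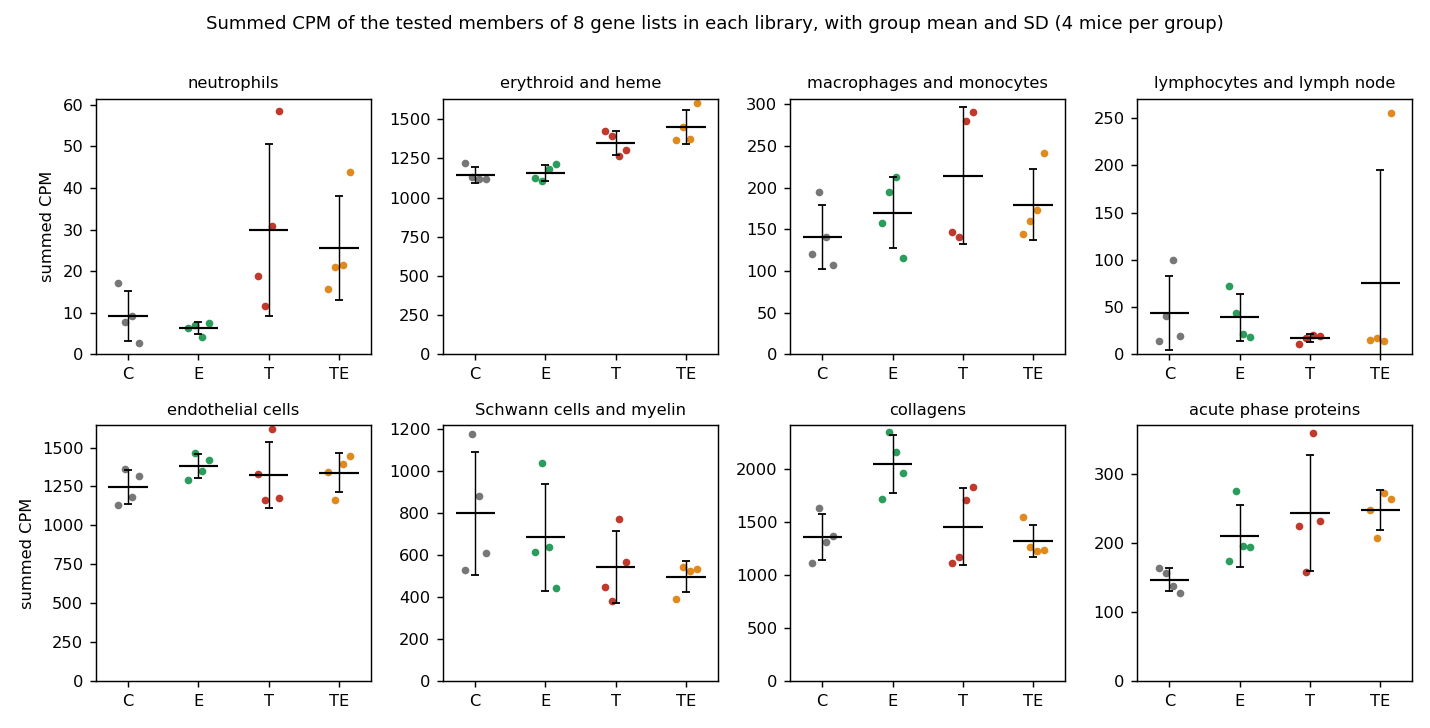
Summed CPM of the tested members of 8 gene lists in each library by group, with 4 points per group, the mean as a bar and the SD as an error bar that is not drawn below 0. Erythroid sums are higher in all T and TE than in all C and E libraries, neutrophil sums are highest in T replicate 4 and TE replicate 4, and the lymph node sum of TE replicate 4 stands far above the other 15.

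The study names S100a8, Gdf10 and Glycam1, and S100a8 is described above. Gdf10, a bone morphogenetic protein relative, ranged from 1.27 to 7.47 CPM (median 3.57) in the tumor-free mice and from 0.635 to 3.10 CPM (median 1.72) in the tumor-bearing mice, and did not pass the test (log2 fold change of -0.93, SE 0.323, adjusted p = 0.1998). Its log2 fold change was -0.15 for T against C and -1.66 for TE against E. Glycam1, a mucin of lymph node venules and of milk, was at 0 counts in 7 of 8 tumor-bearing libraries and had 1023 counts in TE replicate 4, and in the tumor-free mice it ranged from 0 to 175 counts (adjusted p = 0.988).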

How the data were processed

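Counts per gene and FPKM values of the same libraries were used as deposited. Per the submitters' processing notes and the methods, the authors trimmed reads with fastp 0.20.1, aligned them to GRCm39 with HISAT2 2.1.0 and counted them per gene symbol with HTSeq 0.11.2. Which annotation was used, and whether strand was counted, is not given in the sources used here, so overlapping genes on opposite strands may share reads. The deposited FPKM values were made by the authors from these counts and served for levels across genes and 1 alternative filter. Library totals of 35628211 to 37635741 counts set the precision, and floors cover counting error only. Each library came from 1 mouse, and p-values measure the spread between these libraries.

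Raw counts were fitted with edgeR 4.0.16 (R 4.3.3, TMM factors, filterByExpr, quasi-likelihood F test) with training and tumor status as terms over all 16 libraries, and p-values were adjusted over 14749 genes by Benjamini-Hochberg at 0.05. T against C, TE against E and the interaction came from a fit with 1 coefficient per group over the same libraries. CPM values used TMM-scaled library sizes, and the SE of a fold change was its size divided by the root of the F statistic. An exact two-sided permutation test of single genes exchanged tumor labels within each training state. Named genes were the 15 called genes with the smallest p, the 10 with the largest fold change in each direction, up to 6 called members of each of 53 gene lists (or, with none called, the 2 most abundant members), and 3 genes that the study names. The comparison, the lists and these rules were chosen with earlier results of these data known. Alternatives were DESeq2 1.42.0, limma 3.58.1 (voom with sample weights), DESeq2 size factors, a robust fit, no filter, other covariates, a replicate block and libraries left out.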

Additional observations from a re-analysis of the deposited data

Results flagged for a closer look

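In groups of 8 libraries, a library was singled out where the gap to its nearest neighbor exceeded 0.526 of the whole range, both taken as log2 CPM with a prior count of 2, and chance gives such a gap in about 1 of 20 groups. This was met in 9 of 192 groups of named genes, whose values are given as CPM. TE replicate 4 stood above the other 7 tumor-bearing libraries for Glycam1 (27.4 CPM against 0 in the others), for Hbb-bs (435 CPM against 286 to 341 CPM) and for Hbb-bt (95.8 CPM against 40.6 to 50.2 CPM). T replicate 4 stood above them for S100a8 (11.02 CPM against 2.21 to 4.07 CPM) and for the embryonic myosin gene Myh3 (71.5 CPM against 1.37 to 7.61 CPM), a gene of regenerating fibers chosen after its values were seen. T replicate 1 stood below the others for Nid2 (9.64 CPM against 14.01 to 18.7 CPM). Among the tumor-free libraries, E replicate 3 stood above the others for Sele (0.177 CPM against 0 to 0.0292 CPM), E replicate 4 for Socs3 (12.3 CPM against 3.50 to 5.69 CPM), and E replicate 2 stood below the others for the calcium pump gene Atp2a1 (20749.1 CPM against 23371 to 25877 CPM).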

How the results depend on the processing

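The tumor effect was called for 181 genes, with 95 higher and 86 lower. A fold change above 1.5 in addition left 94 and one above 2 left 49, while an unadjusted p under 0.05 alone gave 2001. DESeq2 called 429 (226 higher, 203 lower, 87 past a fold of 2), limma-voom called 144 lower, and without TE replicate 4, C replicate 3 and E replicate 1 the count was 60 (30 higher, 30 lower, 21 past a fold of 2). Counts with DESeq2 size factors in edgeR (181), no filter (208), a robust fit (160), no training covariate (159), averaged states (201), a filter on FPKM (166) and without T replicate 4 and TE replicate 4 (139, chosen after seeing the data) lay within 1.5 times of 181. Leaving out each library gave 113 to 240 genes, with 62 to 123 higher, 51 to 151 lower and 33 to 65 past a fold of 2. Calls of T against C then ranged from 16 to 255 (11 to 175 higher, 5 to 80 lower, 7 to 90 past a fold of 2) and of TE against E from 18 to 33 (10 to 16 higher, 7 to 17 lower, 6 to 12 past a fold of 2). The interaction had 0 to 1 calls. In fits of only the 2 groups compared, T against C gave 30 calls (24 higher, 6 lower, 18 past a fold of 2) and TE against E 96 (75 lower, 21 past a fold of 2). For the interaction DESeq2 called 20 (6 higher, 14 lower, 13 past a fold of 2). With the replicate number as a block the tumor effect had 162 calls, T against C 77 (14 lower, 27 past a fold of 2), TE against E 28 and the interaction 0, but the numbers do not pair the samples, since libraries of the same number deviated together with r from -0.24 to 0.21 and 5 of 16 correlated best with their own number. Of 2132 values of the 82 called named genes under these alternatives, 1847 stayed past the threshold, 285 did not and 0 changed sign. The cause of these changes was not tested. Depth limits genes such as Ltf and Camp, with few counts per library.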
